A study of Mus musculus with 4 samples.

Results

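Transcripts of 9 genes of the oligodendrocyte lineage were measured in cultured cells of the mouse cerebral cortex: Pdgfra, Cspg4, Olig1, Olig2, Sox10, Gpr17, Mbp, Cnp and Nkx2-2. They were taken as every probe set whose only gene symbol, updated by gene identifier, was one of these names. That gave 23 probe sets, of 34945 with a single symbol, and all 9 genes, of 18193 represented. The data are 4 Affymetrix arrays of C57BL6 mice, 2 of neuron cultures and 2 of astrocyte cultures, each pair labelled as biological replicates. Neurons, from embryonic day 16 fetuses, were grown for 7 days by the series description, with 1% fetal calf serum and glucose at 19.4 mM. Astrocytes, from newborn animals, were grown for 20 days with 10% serum and glucose at 33 mM; the protocol text gives a shorter period, common to all assays. Cell type, donor age, medium and time in culture therefore differed together and cannot be told apart. The protocols name no sorting of cells and do not say how many animals a culture came from. In such bulk RNA, fewer cells of a type and less RNA per cell cannot be told apart.

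Oligodendrocytes make the myelin of the central nervous system. They arise from precursor cells that carry the PDGF receptor alpha chain (Pdgfra) and the proteoglycan NG2 (Cspg4), divide in response to PDGF, and are specified by the transcription factors Olig1, Olig2, Sox10 and Nkx2-2. As precursors commit to differentiate they pass through a stage marked by the receptor Gpr17 and then switch on myelin genes such as Cnp and Mbp. In the mouse cortex most of these cells appear around and after birth, and precursors are a familiar minority in cultures of dissociated cortex.

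The lineage genes did not move as a block. Of the 9 genes, 8 were bright enough to be tested; 5 (Pdgfra, Mbp, Gpr17, Sox10 and Cspg4) were higher in neuron cultures, 2 (Cnp and Olig1) were higher in astrocyte cultures, and Olig2 did not pass. Over all 12040 genes tested, 31.1% were called higher in neurons and 31.2% higher in astrocytes, so the cultures differed widely. Taken as neurons minus astrocytes, the log2 fold change had a median of 1.20 over the 8 genes and of 0.02 over all genes tested. Calls are from limma's moderated test on log2(signal + 12.5), at a Benjamini-Hochberg adjusted p under 0.05. Genes that pass the filter on low signals through the group where they are bright had to differ, so these counts describe the genes and support nothing further. The number called higher in neurons was 3 without neurons replicate 2 and 3 without astrocytes replicate 1; the number called higher in astrocytes was 1 without neurons replicate 2 or without either astrocyte array.

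**Figure D1:**
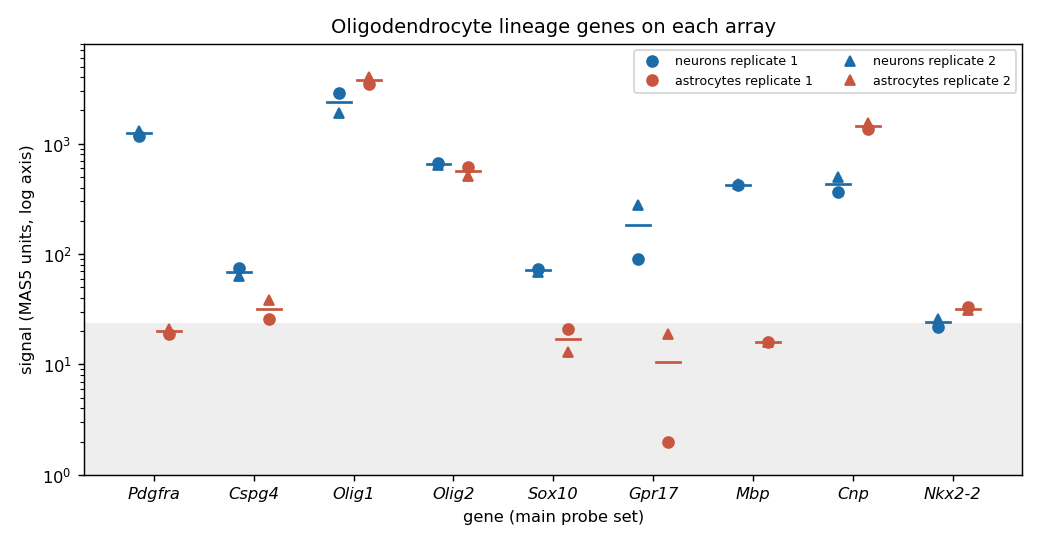
Signal of the main probe set of each lineage gene on the 4 arrays (vertical axis, MAS5 units, log scale; circles, replicate 1; triangles, replicate 2; lines, group means). The grey area ends at 23, the highest Bacillus subtilis control on any array. Pdgfra, Mbp, Gpr17, Sox10 and Cspg4 lie higher on the neuron arrays, Olig1 and Cnp higher on the astrocyte arrays, and Olig2 is close to equal.

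Promoter sequence is shown for the gene with the largest difference in each direction, Pdgfra and Cnp, and for Olig2, which was bright in both cultures. RefSeq promoters on GRCm38.p6 were matched for 5 of the 9 genes. Each run is the 250 bases before the annotated start, on the plus strand, at chr5:75152001-75152250 (Pdgfra), chr16:91225300-91225549 (Olig2) and chr11:100574689-100574938 (Cnp). Capitals mark 2 kinds of motif, searched on both strands: the SOX core ACAAAG or ACAATG, which reads CATTGT on the other strand, and the E-box CANNTG, the class of site bound by bHLH factors such as Olig2.
Pdgfra: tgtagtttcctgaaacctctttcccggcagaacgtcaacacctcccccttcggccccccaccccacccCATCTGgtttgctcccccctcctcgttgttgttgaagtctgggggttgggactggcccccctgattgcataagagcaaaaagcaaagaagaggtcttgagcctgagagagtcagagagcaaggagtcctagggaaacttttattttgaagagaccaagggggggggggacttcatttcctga
Olig2: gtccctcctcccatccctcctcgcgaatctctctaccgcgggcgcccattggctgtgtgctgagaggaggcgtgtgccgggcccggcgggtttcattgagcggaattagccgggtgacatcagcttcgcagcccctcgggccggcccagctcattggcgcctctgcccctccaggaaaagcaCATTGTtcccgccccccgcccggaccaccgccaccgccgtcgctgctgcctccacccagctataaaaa
Cnp: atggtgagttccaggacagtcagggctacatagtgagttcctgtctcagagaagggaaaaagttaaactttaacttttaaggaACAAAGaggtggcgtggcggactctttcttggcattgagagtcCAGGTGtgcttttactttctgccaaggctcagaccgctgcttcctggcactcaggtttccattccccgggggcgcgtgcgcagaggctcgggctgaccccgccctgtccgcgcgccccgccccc
The Pdgfra window held 1 E-box, 182 bases before the start, and no SOX core. Cnp, the gene higher in astrocytes, held 1 SOX core 167 bases before the start and 1 E-box 124 bases before it, and Olig2 held 1 SOX core 68 bases before its start. Of 32851 promoter windows of this length, 25.2% held a SOX core and 66.2% an E-box, so such matches are common. The windows are a description, and a match is not shown to be a site in these cells.

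Pdgfra, the receptor through which PDGF drives precursor division, had the largest difference among the 9 genes. Its main probe set read 1177 and 1302 in neurons and 19 and 21 in astrocytes. The groups lay far apart, and the astrocyte values were just above the brightest Bacillus subtilis control probe sets (17 and 15 on those arrays), which serve as background because mouse RNA should not bind them. The log2 fold change was 5.27 ± 0.16 (SE, n = 2 a group), a 38.5-fold difference (limma adjusted p = 1.37e-07). A weaker probe set read 37 and 42 against 4 and 4, at least 2.47-fold higher. The faintest read 30 and 23 against 11 and 17 and was below the filter. All 3 ran the same way, but the average of the kept probe sets differed by only 3.46 on the log2 scale.

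Pdgfra is also a marker of fibroblasts, and Cspg4 of pericytes, the mural cells of small vessels. Most tested markers of those cells, not all, were lower in the neuron cultures than in the astrocyte cultures. The part of such cells in the Pdgfra and Cspg4 signals was not tested. Of 10 pericyte and mural markers, 6 were tested and 4 were higher in astrocytes, with none higher in neurons. Notch3 and Rgs5 did not pass, and Kcnj8, Abcc9, Anpep and Vtn were below the filter. The summed signal of the 10 was 267 and 662 in neurons and 8078 and 8812 in astrocytes. Most of the astrocyte sum came from Acta2 (4544 and 4791) and Tagln (2691 and 3331). Pdgfrb, the receptor chain of pericytes, read 15 and 44 in neurons and 561 and 479 in astrocytes, while Rgs5 read 22 and 27 against 36 and 32. Of 10 fibroblast and meningeal markers, 9 were tested, 7 were higher in astrocytes and 1, Lum, was higher in neurons; the summed signal was 594 and 625 against 6872 and 7021. The largest differences were those of Islr (29 and 32 against 2465 and 2689) and Cyp1b1 (46 and 46 against 2802 and 2735). Lum lost its call without any 1 of the 4 arrays (adjusted p from 0.0541 to 0.111), Col3a1 without either astrocyte array (0.170 and 0.142), and Col1a1 without astrocytes replicate 2 (0.162) or either neuron array (0.219 and 0.257). Col1a1 read 27 and 24 in neurons and 41 and 103 in astrocytes, whereas Dcn read 290 and 391 in neurons and 255 and 261 in astrocytes.

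Cspg4, the NG2 proteoglycan of precursor cells, differed less. Its brighter probe set read 75 and 63 in neurons and 26 and 38 in astrocytes, a 1.84-fold difference (log2 fold change 0.88 ± 0.24, limma adjusted p = 0.0121). Another read 79 and 78 against 5 and 21, a 3.76-fold difference (log2 fold change 1.91 ± 0.32, limma adjusted p = 0.00105). The arrays of the groups did not overlap on either probe set. On the brighter probe set the call was lost when either neuron array was left out (adjusted p = 0.111 and 0.0700), when astrocytes replicate 1 was (0.0941) and with no filter (0.0512). With the probe sets averaged the log2 fold change was 1.40, with the lowest adjusted p of the 12 alternatives, 0.00162.

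Gpr17, a G protein-coupled receptor that is switched on in committed precursors and off again in mature oligodendrocytes, was higher in neurons but uneven. Its only probe set read 90 and 280 in neurons and 2 and 19 in astrocytes. Every neuron value exceeded every astrocyte value, yet neurons replicate 2 was far brighter than replicate 1. The log2 fold change was 3.02 ± 0.51, an 8.10-fold difference (limma adjusted p = 0.00104). Without neurons replicate 2 it was 2.26 and without astrocytes replicate 1 it was 2.46, and the call was lost in both cases. Without neurons replicate 1 it was 3.77. The lowest limma adjusted p of the 12 alternatives, 3.45e-09, came from the fit with the replicate number as a block. That fit leaves 1 residual degree of freedom, and Gpr17 read higher on replicate 2 in both groups.

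The transcription factor genes split. Olig2, which sets up the lineage and remains on in its cells, read 663 and 642 in neurons and 617 and 508 in astrocytes. The neuron arrays were slightly higher without overlap, and the log2 fold change of 0.22 ± 0.14 did not pass (limma adjusted p = 0.214). Olig1, its relative and neighbour, with 0 protein-coding genes between them on chromosome 16, read 2899 and 1895 in neurons and 3500 and 3997 in astrocytes. It was 1.59-fold higher in astrocytes (log2 fold change -0.67 ± 0.19, limma adjusted p = 0.0137). The call was lost when neurons replicate 2 was left out (log2 fold change -0.37) and when astrocytes replicate 1 (-0.77) or 2 (-0.58) was. It was also lost with no filter (limma adjusted p = 0.0886) and with no mean-variance trend (0.0512). The lowest limma adjusted p of the 13 alternatives, 0.000907, came from the fit with the replicate number as a block. Both genes were well above background on all 4 arrays.

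Sox10, which acts with Olig2 and drives myelin genes, was dim but higher in neurons. Its main probe set read 73 and 69 in neurons and 21 and 13 in astrocytes, a 2.86-fold difference (log2 fold change 1.51 ± 0.24, limma adjusted p = 0.000788). A further probe set read 41 and 45 against 8 and 31 and did not pass (limma adjusted p = 0.0605), and the faintest, at 13 and 4 against 4 and 2, was not above background on any array. Sox10 also marks Schwann cells and other neural crest derivatives. Of 8 markers of those cells, 6 had a probe set and 3 were tested; Pou3f1, which neurons also express, was higher in neurons (319 and 393 against 17 and 11), Egr2 and Erbb3 did not pass, and Pmp2 lay between 2 and 3 on all arrays.

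Nkx2-2, a homeodomain factor that promotes differentiation, was the only one of the 9 genes too dim to be tested. It read 22 and 26 in neurons and 33 and 31 in astrocytes. The astrocyte arrays were higher without overlap. All 4 values were dim, though above the background of their own arrays (21 and 23 for neurons, 17 and 15 for astrocytes), in neurons only slightly. With no filter its limma adjusted p was 0.418.

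Mbp and Cnp, both genes of myelin, ran in opposite directions. Mbp encodes myelin basic protein, which holds the cytoplasmic faces of the sheath together. Its main probe set read 420 and 431 in neurons and 16 and 16 in astrocytes, between the background values of 17 and 15 there. The log2 fold change was 3.94 ± 0.18 (limma adjusted p = 5.94e-07), or 15.4-fold on the scale with the offset added, which understates a difference from so low a signal. It has 8 probe sets here, all with the neuron arrays above the astrocyte arrays; 7 were kept and 6 of them called. The strongest by ratio read 287 and 344 against 1 and 1, at least 19.7-fold higher, and others read 161 and 191 against 3 and 2, and 183 and 145 against 2 and 1. The weakest kept probe set read 41 and 42 against 25 and 30 and did not pass (limma adjusted p = 0.139). The average of the kept probe sets differed by 3.08 on the log2 scale. The Mbp locus is known to give several transcripts, among them the golli forms, which are also found in neurons; which transcript each probe set reads was not tested.

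Cnp encodes a phosphodiesterase that is an early and abundant protein of oligodendrocytes. Its main probe set read 366 and 500 in neurons and 1344 and 1536 in astrocytes, a 3.29-fold difference in favour of astrocytes (log2 fold change -1.72 ± 0.16, limma adjusted p = 3.61e-05). The other probe sets read 83 and 67 against 166 and 221, and 31 and 49 against 148 and 187. All 3 were called higher in astrocytes, by 2.34-fold to 3.46-fold. The call held under each of 12 alternative settings that measured the gene, with log2 fold changes from -1.94 to -1.50.

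Over the 23 probe sets, 19 passed the filter, of which 12 were called higher in neurons, 4 higher in astrocytes and 3 neither. Among 21366 kept probe sets with a single symbol, 29.4% were called higher in neurons and 29.1% higher in astrocytes. Neuron and astrocyte arrays did not overlap on 22 of the 23: 17 were higher in neurons, 5 higher in astrocytes, and 1, of Sox10, overlapped. Mbp alone gave 8 of the 17, and 6 of the 12 called higher in neurons. Probe sets of 1 gene are not independent, and the share without overlap was not computed over all probe sets, so these counts are a description. By main probe set, 6 of the 8 tested genes lay higher in neurons without overlap and 2 higher in astrocytes, where all genes tested gave 41.5% and 40.5%. At least 8-fold differences in favour of neurons were seen for 3 of the 8 (Pdgfra, Mbp and Gpr17), against 4.01% of all genes tested. All 3 passed the filter only through the neuron arrays, where they are bright, so this count supports nothing further. Gpr17 was under 8-fold without neurons replicate 2 (log2 fold change 2.26) or astrocytes replicate 1 (2.46). Of 5 genes with more than 1 kept probe set, 3 (Pdgfra, Cspg4 and Cnp) had every one called in the same direction, against 37.9% of such genes on the array. All probe sets of Mbp, Sox10 and Cnp carry a suffix that marks a match to more than 1 transcript: 9 carry the suffix _a, used for transcripts of a single gene, and 1 and 4, of Mbp and Cnp, carry _s or _x, used where a different gene may also bind.

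**Figure D2:**
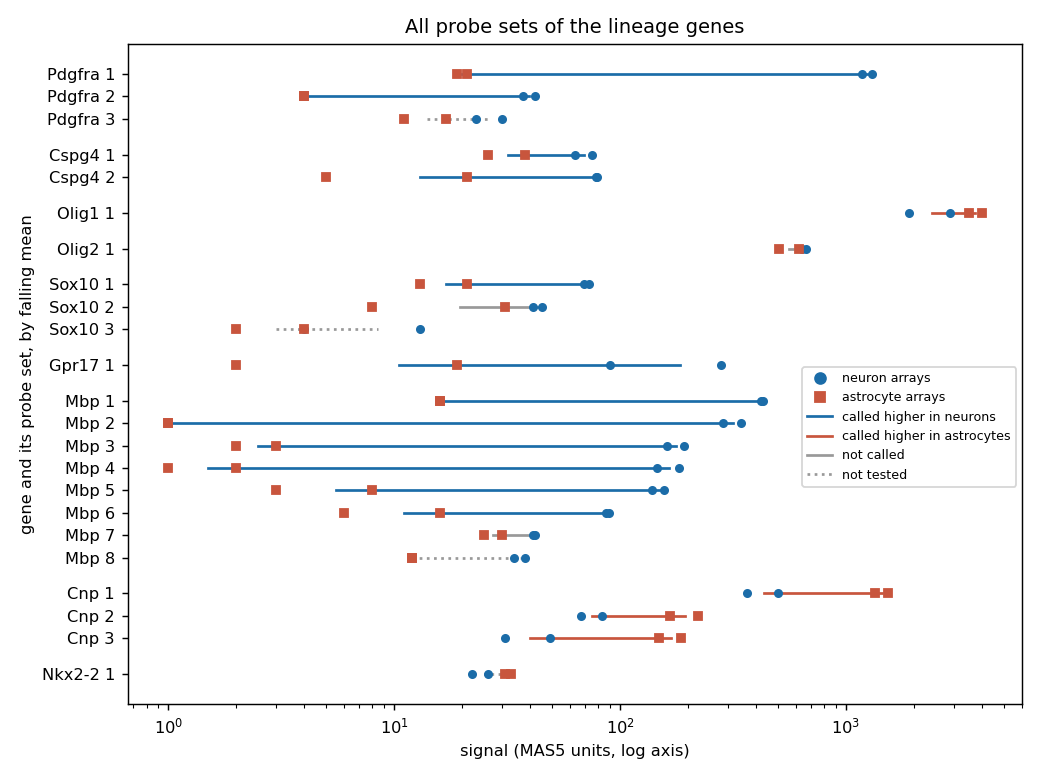
Signal of all 23 probe sets (horizontal axis, MAS5 units, log scale; circles, neuron arrays; squares, astrocyte arrays; lines join the group means and are coloured by the limma call). The 8 Mbp probe sets all lie higher on the neuron arrays and the 3 Cnp probe sets all lie higher on the astrocyte arrays.

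Further genes of the lineage were read from 6 lists that cover precursors, committed cells, mature myelin, inhibitors of differentiation, PDGF and sonic hedgehog. Of 82 genes, 74 had a probe set with a single symbol and 54 were tested. Of those, 20 were called higher in neurons and 26 higher in astrocytes, where all genes tested gave 31.1% and 31.2%. Some passed the filter only through the group where they are bright, so these counts too describe the genes and support nothing further. Like the 9 genes above, the list genes did not shift together. The call was the same without each array in turn for 36 of these 46 genes; the other 10 were Bcas1, Bmp4, Dlx2, Fa2h, Hes1, Mal, Pdgfa, Pdgfb, Ptprz1 and Tmem100.

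More precursor genes were called higher in neurons than in astrocytes. Of 15 tested, of 20 listed, 9 were higher in neurons and 3 in astrocytes, with a median log2 fold change of 1.93. Over all genes tested the shares were 31.1% and 31.2%. Several of those higher in neurons, such as Cacng4, Lhfpl3 and Pcdh15, passed the filter only through the neuron arrays. The count and the median therefore support nothing further. Cacng4, a partner subunit of AMPA receptors, read 366 and 438 in neurons and 5 and 3 in astrocytes, at least 25.1-fold higher (limma adjusted p = 5.78e-07). Lhfpl3, which is known as a precursor marker, read 408 and 559 against 24 and 18, a 14.7-fold difference. Pcdh15, a protocadherin, read 175 and 204 against 7 and 4, at least 11.8-fold higher. The groups lay far apart for each of these genes. In the other direction, the lysophosphatidic acid receptor gene Lpar1 read 21 and 35 in neurons and 749 and 714 in astrocytes, an 18.6-fold difference, and Sox6 was 2.28-fold higher in astrocytes. Ptprz1, a receptor phosphatase that astrocytes also make, read 2238 and 2495 against 3356 and 2814; its call (limma adjusted p = 0.0286) was lost without neurons replicate 1 (0.233) or 2 (0.118) or astrocytes replicate 1 (0.181).

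Genes of committed and premyelinating cells were mixed. Of 12 tested, of 16 listed, 3 were higher in neurons and 6 in astrocytes, with a median log2 fold change of -0.68. Myt1, a zinc finger factor of precursors and young neurons, read 109 and 105 in neurons and 0 and 7 in astrocytes, at least 6.69-fold higher. Fyn, a kinase active in oligodendrocytes and in neurons, was 3.42-fold higher in neurons (1169 and 1203 against 353 and 323). Bcas1, a marker of cells that begin to myelinate, read 80 and 281 in neurons and 39 and 14 in astrocytes. It was 4.46-fold higher in neurons (log2 fold change 2.16, limma adjusted p = 0.00654). The call was lost when neurons replicate 2 was left out (1.32, adjusted p = 0.134) or astrocytes replicate 1 (2.64, 0.0906) or 2 (1.68, 0.200); without neurons replicate 1 the log2 fold change was 2.99. Qk, an RNA-binding protein that controls myelin transcripts, was the brightest of the list and 2.09-fold higher in astrocytes (2056 and 2224 against 4703 and 4287). Tns3 was 6.20-fold higher in astrocytes, Sox9, which astrocytes keep and oligodendrocytes lose, 4.37-fold, and Tcf7l2, an effector of Wnt signals, 3.59-fold.

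Mature myelin genes were mostly dim. Of 25 listed, 21 had a probe set and 10 were tested, 4 of them higher in neurons and 5 in astrocytes, with a median log2 fold change of -0.53. Ugt8a, the enzyme that makes galactosylceramide of myelin, read 138 and 174 in neurons and 1 and 3 in astrocytes, at least 9.75-fold higher (limma adjusted p = 4.98e-06). Omg, a myelin glycoprotein that neurons also make, was 11.0-fold higher in neurons (357 and 215 against 20 and 9), and the tetraspanin gene Tspan2 3.54-fold higher. Those higher in astrocytes were Plekhb1 (25.1-fold), the actin-severing gelsolin gene Gsn (11.4-fold) and Cd9 (10.9-fold), among others; Gsn and Cd9 are widely expressed outside the lineage. Structural myelin genes, named after their values were seen, were below the filter: Mag read 17 and 20 in neurons and 6 and 7 in astrocytes. Mog read 15 and 11 against 1 and 4, and Mobp read 35 and 20 against 5 and 3. These signals were near background in neurons, which is 21 and 23, and at or under it in astrocytes.

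**Figure D3:**
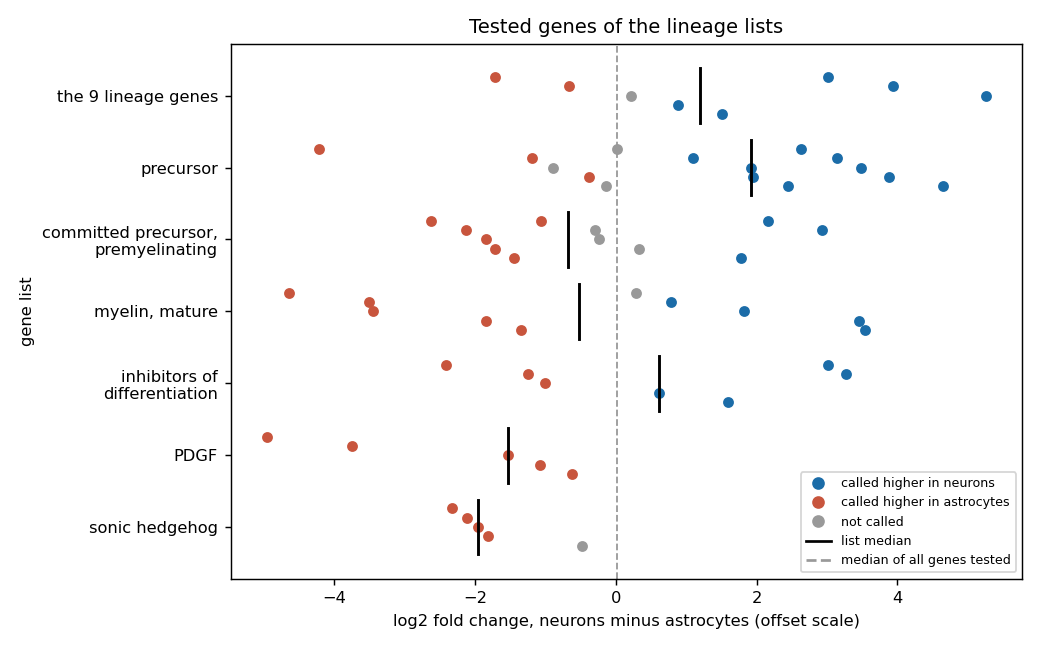
Log2 fold change (horizontal axis, neurons minus astrocytes) of every tested gene of the 9 lineage genes and of the 6 lists, coloured by the limma call; black lines are list medians and the dashed line is the median of all genes tested. Precursor genes have a median of 1.93, while the tested PDGF and sonic hedgehog genes all lie to the left of 0.

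PDGF genes were called higher in the astrocyte cultures, where Pdgfra itself was near background. The list holds 4 ligand genes and Pdgfrb, also a pericyte marker, and all 5 were called, with a median log2 fold change of -1.53. Over all genes tested, 31.1% were called higher in neurons and 31.2% higher in astrocytes. Pdgfd passed the filter only through the astrocyte arrays. The count and the median of this list therefore support nothing further. Pdgfa, the ligand best known for acting on precursors, read 468 and 572 in neurons and 816 and 793 in astrocytes. It was 1.54-fold higher in astrocytes (log2 fold change -0.62, limma adjusted p = 0.00457). The call was lost without astrocytes replicate 1 (-0.60, adjusted p = 0.0855) or 2 (-0.64, 0.0758), with a difference of much the same size. Pdgfd read 4 and 24 against 846 and 669, a 31.2-fold difference, and Pdgfc was 2.88-fold higher. Of the sonic hedgehog pathway, which induces Olig2 in the ventral brain, 5 of 8 genes were tested and 4 were higher in astrocytes, with a median of -1.96. This count too is a description, beside the 31.2% of all genes tested that were called higher in astrocytes. The ligand gene Shh read 84 and 123 against 451 and 513 (4.32-fold), the signal transducer gene Smo was 5.02-fold higher, Gli3 3.89-fold higher and the receptor gene Ptch1 3.53-fold higher. Gli2 did not pass (90 and 60 against 110 and 105, limma adjusted p = 0.0946). Gli1 (17 and 23 against 12 and 1) and Hhip (13 and 24 against 2 and 12) were below the filter. The neuron arrays read higher for both, but Gli1 was not above background on any array and Hhip only on neurons replicate 2.

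Inhibitors of oligodendrocyte differentiation were called in both directions. Of 7 tested, 4 were higher in neurons and 3 in astrocytes. Dlx1, a factor of interneurons that opposes the oligodendrocyte fate, was 9.66-fold higher in neurons (292 and 321 against 20 and 21). Lingo1, a neuronal membrane protein, was 8.09-fold higher, and the Notch target gene Hes5 3.02-fold higher. Id4 read 554 and 1119 in neurons and 3909 and 4661 in astrocytes, a 5.35-fold difference; Id2 was 2.01-fold higher in astrocytes. Hes1, at 2.38-fold, lost its call without astrocytes replicate 1 (adjusted p = 0.0550).

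The neuron arrays differed from each other on a few lineage genes. Gpr17, at 90 on replicate 1 and 280 on replicate 2, differed by 1.51 on the log2 scale, and 0.224% of all genes tested differed as much between these arrays. Bcas1 (80 and 281) and the phosphodiesterase gene Enpp6 (9 and 59), singled out after their values were seen and known like Gpr17 from committed cells, differed by 1.67 and 1.73 in the same direction. Of 15 genes on the committed and premyelinating list, 13 read higher on replicate 2, with a median difference of 0.20 against -0.02 for all genes tested. The precursor list was much the same (12 of 18, median 0.22), and the myelin list less so (11 of 21, median 0.05). Of all 12040 genes tested, 5542 read higher on replicate 2. The lists, unlike the genes tested, include genes below the filter, among them Enpp6, whose 9 was under the background of 21. Pdgfra, Mbp, Sox10 and Olig2 differed by at most 0.14, whereas Olig1 was lower on replicate 2 by 0.61. All 7 proliferation genes with a probe set were lower on replicate 2, by a median of 0.63; Mki67 read 468 and 298 there and 13 and 16 in astrocytes. Markers of other cells moved both ways between these arrays. On replicate 2, 8 of 10 pericyte, 6 of 10 astrocyte and 5 of 10 fibroblast markers read higher, with medians of 0.21, 0.05 and 0.05. Among the largest differences, picked after their values were seen, Gfap (2 and 109), Tagln (6 and 95) and Acta2 (87 and 361) were higher on replicate 2, and the collagen genes Col3a1 (69 and 13) and Col1a2 (63 and 20) were lower. Their part in the difference of Gpr17 was not tested.

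**Figure D4:**
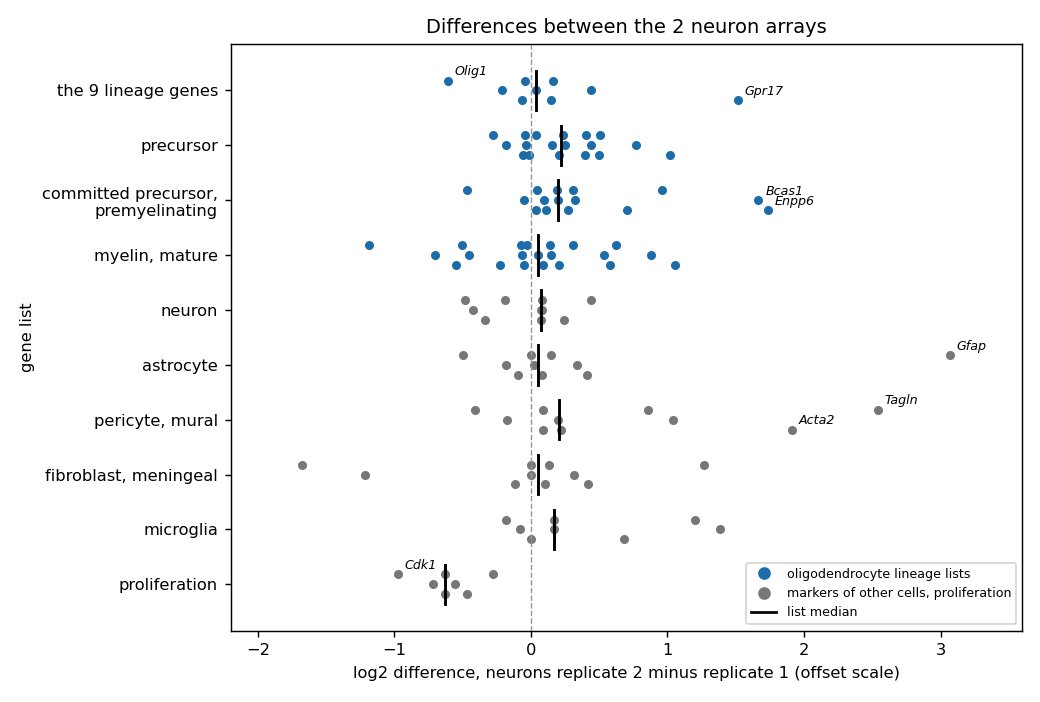
Log2 difference between the neuron arrays (horizontal axis, replicate 2 minus replicate 1) for genes of each list, lineage lists in blue and markers of other cells and proliferation in grey; black lines are list medians. Gpr17, Bcas1 and Enpp6 lie at 1.51 to 1.73, Gfap at 3.07, and the proliferation genes all lie to the left of 0.

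The labels of the cultures held up against the neuron markers and against most, not all, of the astrocyte markers. Each of the 10 neuron markers was called higher in neurons (median 6.23 on the log2 scale); Snap25 read 4360 and 3813 against 1 and 2, and Tubb3 2875 and 3021 against 68 and 63. Neuron transcripts were not absent from the astrocyte cultures: the summed signal there was 3141 and 2941 against 33371 and 33585 in neurons, most of it from Stmn2 (1465 and 1485) and Map2 (1487 and 1269). Of 10 astrocyte markers, 7 were called for astrocytes and 2 for neurons, and the summed signal in neurons was 11878 and 12934 against 24123 and 25425. Gfap read 2 and 109 in neurons, the first under background, and 1744 and 2133 in astrocytes. Aqp4 read 551 and 701 in neurons and 4668 and 3859 in astrocytes. Higher in neurons were Slc1a2, a transporter of glutamate, by 4.47-fold, and the aldolase gene Aldoc by 1.51-fold. The Aldoc call was lost when neurons replicate 2 (adjusted p = 0.107) or either astrocyte array (0.155 and 0.0925) was left out. The part of astrocytes in the Olig1, Olig2 and Cnp signals of either culture was not tested. Of 8 microglia markers, 4 were tested and 3 were higher in astrocytes: C1qa (2 and 2 against 124 and 156), Ctss (3 and 28 against 295 and 272) and Csf1r (47 and 40 against 149 and 151). Aif1 was below the filter, at 4 and 14 in neurons and 13 and 25 in astrocytes.

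**Figure D5:**
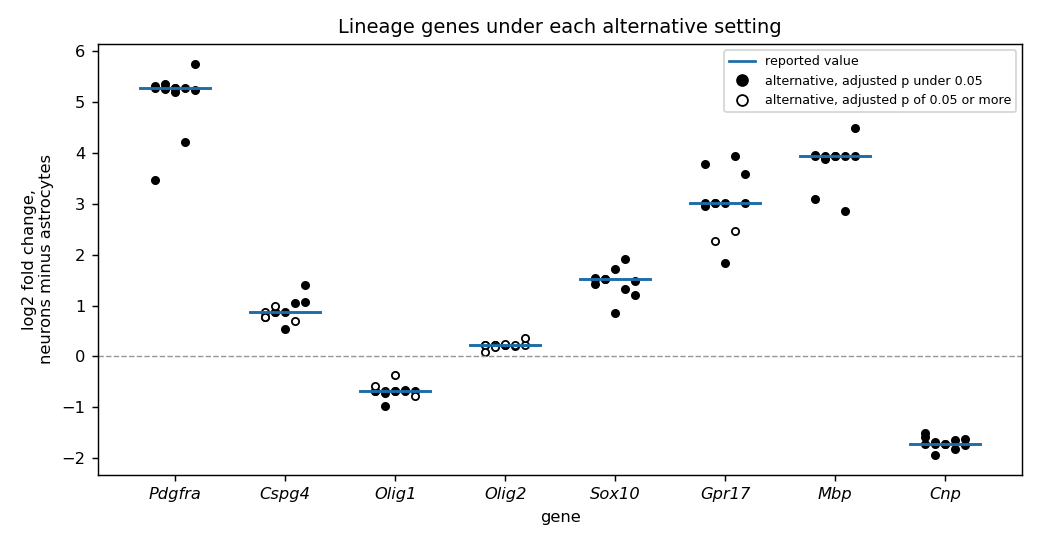
Log2 fold change (vertical axis, neurons minus astrocytes) of each of the 8 tested lineage genes as reported (blue line) and under each alternative setting that measured it (points; filled where the limma adjusted p was under 0.05). Pdgfra, Mbp, Sox10 and Cnp are filled throughout, Cspg4, Gpr17 and Olig1 have some open points, and Olig2 has open points only.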

How the data were processed

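RNA from 4 cultures (2 neurons, 2 astrocytes) was amplified in 2 rounds from 50 ng and hybridised to Affymetrix arrays, per the labels' protocols. The deposited files hold linear intensity values made by the authors with MAS5, as the submitters' processing notes name it; the version and scaling target are not given in the sources used. The mean after trimming 2% from each end was 149.997 to 150.002 on each array. No detection calls were used, and the number of arrays limits the precision. Of 45101 probe sets, 64 controls were left out, and 34945 had 1 gene symbol in the platform annotation. Values were transformed to log2(value + 12.5), the offset being the median of the arrays' 25th percentiles, so folds carry that offset and are too small for dim genes. The filter kept the 25019 probe sets that reached the array's median on at least 2 arrays. limma 3.58.1 in R 4.3.3 (lmFit, eBayes with trend, 2 residual degrees of freedom, prior 6.27, two-sided) was fitted across all kept probe sets, with Benjamini-Hochberg adjustment over them; adjusted p-values are from this fit. Each gene takes the values of its brightest kept probe set (highest mean signal). The background is the highest of 27 Bacillus subtilis controls on each array (21 and 23 on the neuron arrays, 17 and 15 on the astrocyte arrays). Folds given as "at least" divide the mean signal of the bright group by the mean background, 16 for astrocytes, where both arrays lay at or under it. The fit was tested on simulated data. From each of the 6 lineage lists the text names the 3 largest called changes in each direction and the brightest member, and from the marker lists a set of defining markers (Tubb3, Snap25, Gfap, Aqp4, Pdgfrb, Rgs5, Col1a1, Dcn, Aif1 and Mki67); other markers were named after their values were seen. The genes and lists were chosen with earlier results of these data known. Alternatives changed the offset, filter, scaling, variance model, choice of probe set, block and arrays used.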

Additional observations from a re-analysis of the deposited data

How the results depend on the processing

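Of the 8 tested lineage genes, Pdgfra, Mbp, Sox10 and Cnp kept their direction and their call under every alternative that measured them, with log2 fold changes of 3.46 to 5.75, 2.85 to 4.49, 0.86 to 1.91 and -1.94 to -1.50, and no gene reversed. The reported counts were 5 higher in neurons and 2 in astrocytes. With the filter at the 75th percentile, which tests fewer genes (7982), 2 were higher in neurons, and 12 of the list genes in place of 20. Without probe sets ending in _x_at, _s_at or _a_at, which leaves Mbp, Sox10 and Cnp unmeasured, the counts were 3 and 1. Without the filter, 4 were higher in neurons and 1 in astrocytes, and without the mean-variance trend 5 and 1. With 1 array left out, 3 to 5 were higher in neurons and 1 to 2 in astrocytes, and 16 to 18 and 21 to 25 of the list genes. Such fits assume that a lone array varies like the other group. Quantile normalization moved the median log2 fold change of all genes from 0.02 to -0.02. With the replicate number as a block the counts stayed at 5 and 2, and those of all genes were 3689 and 3740 against 3749 and 3760; same-numbered arrays share only a number (correlation of deviations -0.09). Low signals limit Nkx2-2, Sox10 and the structural myelin genes.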
